A study of Mus musculus with 4 samples.

Results

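The transcripts of insulin and insulin-like growth factor (IGF) receptor signalling were followed in mouse pancreatic islets through 9 genes chosen by name. They are 3 receptors (Insr, Igf1r and Insrr), 2 receptor substrates (Irs1 and Irs2), 2 AKT kinases (Akt1 and Akt2) and 2 FOXO transcription factors (Foxo1 and Foxo3). All 9 were found among the 55487 genes of the deposited table, and all 9 passed the filter on low values that left 16589 genes for testing. Pancreatic islets hold the beta, alpha and other endocrine cells, and were here freshly isolated from 30-week-old C57BL/6 mice. The control group was Ggcx flox/flox without Cre, and the knockout group was Ggcx flox/flox; Pdx1-Cre, so all animals carried the floxed Ggcx alleles. Pdx1-Cre drives recombination across the pancreatic lineage and not in beta cells alone, and no group carried the transgene with an unfloxed Ggcx. Each of the 4 libraries pooled the islets of 2 mice, which gave n = 2 libraries per genotype.

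Insulin, IGF1 and IGF2 bind receptor tyrosine kinases of one family, which phosphorylate the insulin receptor substrate (IRS) proteins. These recruit phosphoinositide 3-kinase (PI3K), whose lipid product brings AKT to the membrane. Active AKT phosphorylates the FOXO factors and keeps them out of the nucleus, so that FOXO target genes are released when the signal is low. Beta cells both secrete insulin and carry its receptor. Irs2 is known for its part in maintaining beta-cell mass, and Foxo1 for its part in beta-cell stress and identity.

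The libraries held between 47624630 and 51756221 reads assigned to genes. Ggcx, the targeted gene, stood at 3971 and 3981 normalized counts in the controls and at 234.2 and 643.4 in the knockouts, in the direction of the labels. Markers of the islet tissue were abundant. The 6 beta-cell markers summed to between 413824 and 430076 TPM in every library. TPM are transcripts scaled to a fixed total per library after division by exon length. Ins1, Ins2 and Iapp held nearly all of that sum, and their log2 fold changes were above 0. Those of Mafa (-0.13), Ucn3 (-0.06) and Slc2a2 (-0.17) were below 0. None of the 6 was called by limma, and their median was -0.01. None of the 8 tested acinar markers was called by limma, and all 8 log2 fold changes were below 0, with a median of -0.70 and a summed level of 205 to 339 TPM against 411 to 478 TPM in controls. Of the 8 stellate and fibroblast markers 1 was called, and 7 had a log2 fold change above 0 (median 0.71). Of the 4 alpha-cell markers 1 was called, and all 4 were above 0 (median 0.52). The stellate marker Dcn and Ghrl, the marker of epsilon cells, were among the markers that passed the test. The adipocyte markers Adipoq, Plin1 and Lep and the acinar marker Amy2a1 were at 0 in all libraries. The remaining adipocyte marker, Fabp4, was not called (log2 fold change 0.74). It stood at 279 and 181 normalized counts in the controls and at 338 and 417 in the knockouts. The part of these cell types in the results that follow was not tested. RNA came from whole islets, so fewer cells of a type and less RNA per cell cannot be told apart.

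Values are read counts normalized to library size. Differences between genotypes (knockout minus control) are log2 fold changes of value + 1, with standard errors (SE), 95% intervals and adjusted p from limma with Benjamini-Hochberg adjustment over the 16589 tested genes. Levels of different genes are compared only per length, as TPM over the annotated exon length of each gene. The p-values measure only the spread between these 4 pooled libraries. For each gene, limma moderates that spread toward a trend with level over all tested genes. The SE, intervals and p-values thus do not give the spread of that gene alone. Control libraries are numbered 2 and 3 as in the deposited table.

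None of the 9 genes passed the test, where 0.621% of all tested genes did (62 lower and 41 higher in knockout islets, or 55 lower and 57 higher with upper-quartile scaling). Without control library 2 the calls over all genes were 241 lower and 207 higher, without control library 3 they were 49 and 58, without knockout library 1 they were 98 and 72, and without knockout library 2 they were 148 and 101. By edgeR and by DESeq2 on the recovered reads the count of members was also 0, and 2 of 9 had an unadjusted limma p under 0.05, both lower, against 14.1% of all tested genes (7.34% lower and 6.74% higher). The differences were small and mostly of one sign. For 8 of 9 genes the log2 fold change was below 0, against 49.9% of all tested genes (the exception, Irs1, was also below 0 when libraries were scaled to a common total), and the median was -0.08 against 0.00 for all tested genes. Both knockout libraries lay below both controls for 6 of 9 genes, which 23.0% of all tested genes also showed, and the groups overlapped for the other 3, where 45.0% of all tested genes did not overlap in either direction. Among the 6839 tested genes with a mean of at least 1000, a bound chosen after the values were seen and met by all 9 members, that share was 30.0%, and 58.1% had a log2 fold change below 0. Igf1r and Foxo3 were the furthest from 0, and Irs1 and Irs2 the nearest.

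**Figure D1:**
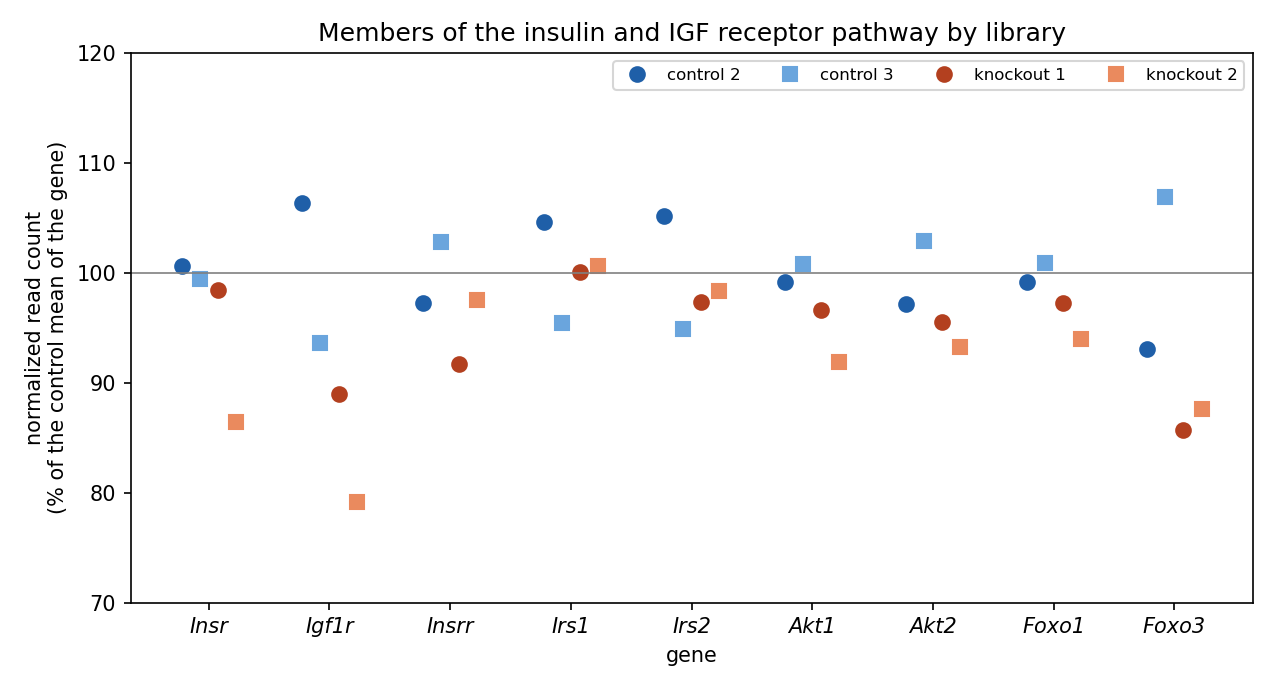
Normalized read count of each of the 9 genes in the 4 libraries, as a percent of the mean of the 2 controls of that gene (y axis, from 70 to 120). Blue symbols are control libraries and red and orange symbols knockout libraries; Igf1r and Foxo3 show the widest distance between the genotypes, and the symbols of Irs1, Irs2 and Insrr interleave.

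Among the receptors, Igf1r (chr7:67952827-68233668, plus strand, GRCm38) encodes the IGF1 receptor. It stood at 3994 and 3518 normalized counts in control libraries 2 and 3 and at 3342 and 2972 in knockout libraries 1 and 2. Both knockouts were below both controls, but the lower control and the higher knockout were close together. The mean went from 3756 ± 337 to 3157 ± 262 (SD, n = 2 each), a log2 fold change of -0.25 ± 0.08 (SE) with a 95% interval of -0.42 to -0.08. The limma adjusted p was 0.179 (unadjusted 0.00992), so the difference did not hold up against the adjustment. In the authors' deposited table, its adjusted p was 0.131. Leaving out each library in turn gave log2 fold changes of -0.34 to -0.16, none of them called.

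Insr (chr8:3122061-3279617, minus strand) encodes the insulin receptor. It measured 3498 and 3456 in the controls and 3422 and 3005 in the knockouts. Knockout library 2 was low, and knockout library 1 was close to the lower control. The log2 fold change was -0.12 ± 0.07 (SE) with an interval of -0.27 to 0.03 and a limma adjusted p of 0.490. Without knockout library 2 it was -0.02, and without knockout library 1 it was -0.21, so the size of the difference rested on 1 library.

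Insrr (chr3:87796951-87816101, plus strand) encodes the insulin receptor-related receptor, a family member that binds neither insulin nor the IGFs and responds to alkaline pH. Its counts were 12142 and 12837 in the controls and 11454 and 12185 in the knockouts, and the groups overlapped. The log2 fold change was -0.08 ± 0.05 (SE), the interval -0.20 to 0.04 and the limma adjusted p 0.567. It ran from -0.12 without knockout library 2 to -0.03 without knockout library 1.

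Among the 3 receptors, Insrr differed far more from Insr and Igf1r than any of them did between genotypes. Insrr was the most abundant of them, at 102 ± 6.13 TPM (SD over the 4 libraries), followed by Insr at 11.7 ± 0.972 and Igf1r at 9.87 ± 1.34. Per length, Insrr transcripts outnumbered Insr transcripts between 8.05-fold and 9.75-fold in the 4 libraries. Insrr made up 82.1% ± 1.26 of the summed receptor level in the controls (SD, n = 2) and 83.0% ± 1.85 in the knockouts (SD, n = 2). The Insr and Igf1r levels overlapped over the 4 libraries, although Insr was the higher of the pair in each one. The ratio of Insr to Igf1r was 1.07 and 1.20 in controls and 1.25 and 1.24 in knockouts, a difference in log2 ratio of 0.13. An exact permutation test of 2 against 2 libraries cannot go below p = 0.33 (two-sided), and gave that value here.

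Among the substrates, Irs2 (chr8:10984681-11008458, minus strand) was the most abundant of all 9 genes. It stood at 33478 and 30199.9 normalized counts in the controls and at 31001 and 31304 in the knockouts. The knockouts lay between the controls. Its log2 fold change was -0.03 ± 0.06 (SE), with an interval of -0.16 to 0.10 and a limma adjusted p of 0.877. Irs1 (chr1:82233101-82291416, minus strand) was the least abundant of the 9. It measured 1114 and 1016 in the controls and 1066 and 1071 in the knockouts, again inside the range of the controls. The log2 fold change of Irs1 was 0.01 ± 0.07 (SE; below 0 with scaling to a common total), the interval -0.15 to 0.17 and the limma adjusted p 0.985. The spread of Irs1 between the 2 controls was 6.48% of their mean, where counting error alone gives 3.06%.

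Per length the pair was further apart than any other of the 5 pairs whose ratio was computed. Irs2 stood at 239 ± 11.2 TPM and Irs1 at 5.58 ± 0.196 TPM (SD over the 4 libraries). The ratio of Irs2 to Irs1 was 43.5 and 43.0 in the controls and 42.1 and 42.3 in the knockouts, a difference in log2 ratio of -0.04 (exact permutation p = 0.33, the smallest possible). The remaining substrates were close to undetected, with 4 to 9 reads for Irs3 and 5 to 14 reads for Irs4 per library. Irs2 thus held between 97.6% and 97.7% of the summed level of the 4 IRS genes in each library. Irs2 was in the 98.4th percentile of tested genes by level per length and Irs1 in the 44.1st.

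The bases before the start of these 2 genes are shown because the substrates are the most and the least abundant of the 9. RefSeq promoter windows on GRCm38.p6 were found for 7 of the 9 genes. Each line gives the 250 bases before the RefSeq start, read 5′ to 3′ on the strand of the gene. Both genes lie on the minus strand, with windows at chr1:82291440-82291689 for Irs1 and chr8:11008930-11009179 for Irs2. Neither window reaches into the gene as GENCODE M21 annotates it. The RefSeq start lay 23 bases before the GENCODE start for Irs1 and 471 bases before it for Irs2. Positions below are counted from the RefSeq start. Capitals mark the E-box CACGTG and the insulin response element core CAAAACA, here found as its reverse complement TGTTTTG.
Irs1: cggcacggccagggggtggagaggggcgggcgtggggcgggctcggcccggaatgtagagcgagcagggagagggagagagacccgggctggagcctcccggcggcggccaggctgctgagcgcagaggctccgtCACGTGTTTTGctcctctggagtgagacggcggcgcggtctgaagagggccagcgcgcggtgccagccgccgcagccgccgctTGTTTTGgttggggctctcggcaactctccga
Irs2: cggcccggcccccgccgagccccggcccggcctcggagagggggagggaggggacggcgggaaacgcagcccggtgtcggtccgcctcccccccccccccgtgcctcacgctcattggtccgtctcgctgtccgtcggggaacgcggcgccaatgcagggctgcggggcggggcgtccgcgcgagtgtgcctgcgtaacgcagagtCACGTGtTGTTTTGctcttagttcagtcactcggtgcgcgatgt

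Each window held an E-box next to an insulin response element core. In Irs1 the E-box began 115 bases before the start and shared 2 bases with a TGTTTTG that began 111 bases before it, and a further TGTTTTG began 32 bases before the start. In Irs2 the E-box began 44 bases and the TGTTTTG 37 bases before the start, with 1 base between them. Of all 32851 RefSeq windows of this length, 6.02% held the E-box, 5.56% the core CAAAACA and 0.295% both, on either strand. The letters GTAAACA, searched as the FOXO site (3.17% of windows), were not found in either window. Nor was the cyclic AMP response element TGACGTCA (1.55%). Binding of FOXO proteins was not tested, to GTAAACA or to the core CAAAACA. Of the 7 windows, that of Akt1 alone held GTAAACA, 161 bases before the start. No other member window held the E-box or the core. Both substrate windows were rich in G and C, at 72.4% for Irs1 and 72.8% for Irs2. The median of all windows was 52.4%. They held 28 and 34 CpG dinucleotides, against a median of 6. Among the other member windows, Igf1r (77.6%) and Foxo3 (76.4%) held more G and C. Foxo1 (56.0%), Akt1 (52.0%) and Akt2 (48.8%) held less. The motif matches describe the letters only, and their part in the levels of the 2 genes was not tested.

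Among the AKT kinases, which carry the signal from PI3K to FOXO, mTOR and GSK3, Akt1 (chr12:112653821-112674884, minus strand) stood at 5013 and 5095 normalized counts in the controls and at 4884 and 4644 in the knockouts. Both knockouts were below both controls, by a few percent. The log2 fold change was -0.09 ± 0.05 (SE) with an interval of -0.20 to 0.03 and a limma adjusted p of 0.501. It ran from -0.12 without knockout library 1 to -0.05 without knockout library 2. Akt2 (chr7:27591552-27640826, plus strand), the isoform best known for glucose uptake in muscle and fat, measured 3160.3 and 3346 in the controls and 3107 and 3035 in the knockouts. These values did not overlap either, and knockout library 1 was close to control library 2. Its log2 fold change was -0.08 ± 0.05 (SE), the interval -0.20 to 0.04 and the limma adjusted p 0.553. Without control library 2 it was -0.12 and without control library 3 it was -0.04.

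Per length, Akt1 stood at 57.4 ± 3.35 TPM and Akt2 at 21.2 ± 1.29 TPM (SD over the 4 libraries), and their ranges did not overlap. The ratio of Akt1 to Akt2 was 2.76 and 2.65 in controls and 2.74 and 2.66 in knockouts (exact permutation p = 1, two-sided). Akt1 was the higher of the pair in all 4 libraries.

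Among the FOXO factors, Foxo3 (chr10:42181841-42276755, minus strand) stood at 5022 and 5771 normalized counts in the controls and at 4627 and 4729 in the knockouts. The knockouts were close together and below both controls, and the controls were further apart from each other than control library 2 was from the knockouts. The mean went from 5397 ± 529.7 to 4678 ± 72.0 (SD, n = 2 each). On the log2 scale Foxo3 differed by -0.20 ± 0.07 (SE) with an interval of -0.35 to -0.05 and a limma adjusted p of 0.214 (unadjusted 0.0145). Without control library 2, Foxo3 passed the test at -0.30 (limma adjusted p 0.0292), and without control library 3 the difference was -0.10 (0.470). Foxo1 (chr3:52268336-52353221, plus strand) measured 5743 and 5844 in the controls and 5633 and 5447 in the knockouts, without overlap. Its log2 fold change was -0.06 ± 0.05 (SE), the interval -0.17 to 0.04 and the limma adjusted p 0.610, with -0.09 without knockout library 1 and -0.04 without knockout library 2.

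Per length, Foxo3 at 31.9 ± 3.84 TPM and Foxo1 at 31.3 ± 1.52 TPM (SD over the 4 libraries) did not differ beyond their spread, and each was the higher of the pair in 2 of 4 libraries. The ratio of Foxo1 to Foxo3 was 0.999 and 0.885 in controls and 1.06 and 1.01 in knockouts, a difference in log2 ratio of 0.14 (exact permutation p = 0.33, the smallest possible). Foxo6 followed at 21.2 ± 2.74 TPM and Foxo4 at 16.8 ± 0.867 TPM. Neither differed between the genotypes beyond its spread, with log2 fold changes of -0.02 ± 0.12 for Foxo6 (above 0 with upper-quartile scaling) and 0.03 ± 0.07 for Foxo4 (SE). Foxo6 was higher in control library 3 and knockout library 2 than in the other two.

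**Figure D2:**
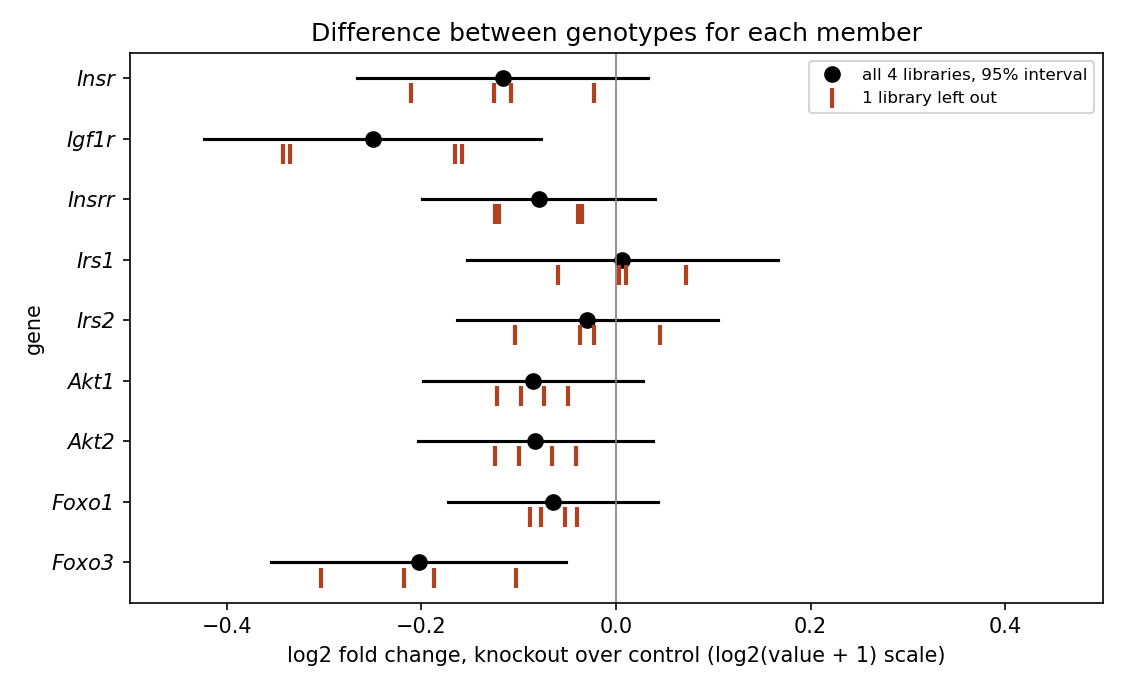
Log2 fold change of knockout over control for each of the 9 genes (x axis), with the 95% interval from limma as a line and the estimates without 1 library as red ticks. Only the intervals of Igf1r (-0.42 to -0.08) and Foxo3 (-0.35 to -0.05) lie wholly below 0, before any adjustment for the number of genes tested.

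Ordered by level per length, the 9 genes ran from Irs2 through Insrr (102 TPM), Akt1 (57.4), Foxo3 (31.9), Foxo1 (31.3), Akt2 (21.2), Insr (11.7) and Igf1r (9.87) to Irs1 (5.58). Neighbours in this order differed by 1.47-fold or more and did not overlap in any library, except the pair Foxo3 and Foxo1 (1.02-fold) and the pair Insr and Igf1r (1.18-fold). With the longest annotated transcript as the length, Akt2 (26.5 TPM) stood above Foxo1 (24.9), so the order of that pair depends on the length used. Irs1, Irs2 and Foxo1 each share exon bases with an opposite-strand gene, and whether counting used strand is not given in the sources used here. The shared bases were 2822 of 9144 exon bases for Irs1, 162 of 6323 for Irs2 and 674 of 8665 for Foxo1. The partners had mean normalized counts of 1.8, 29.7 and 17.5. How many reads of the shared bases were left out of the counts was not tested.

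**Figure D3:**
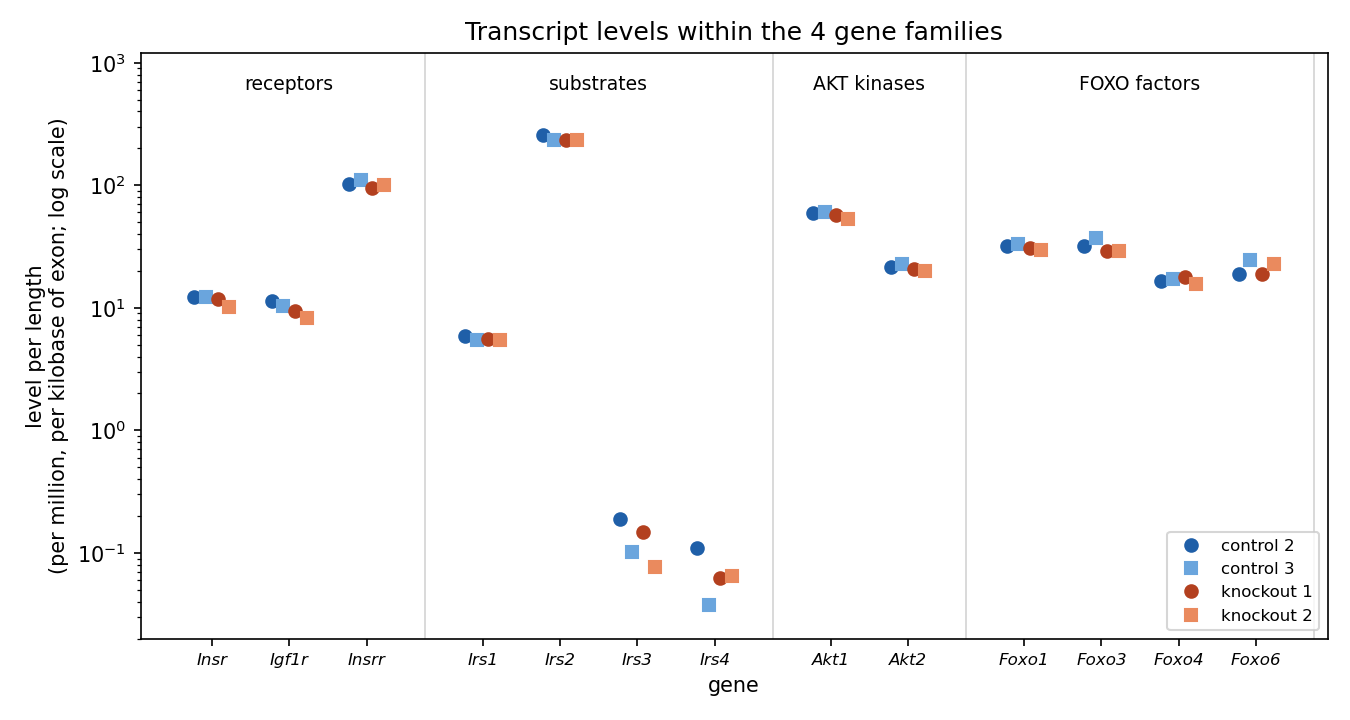
Level per length in TPM (y axis, log scale) of genes of the 4 families in each library, with controls in blue and knockouts in red and orange. The distances of Irs2 from Irs1 and of Insrr from Insr are far larger than the distances between libraries. The levels of Foxo3 and Foxo1 overlap, as do those of Insr and Igf1r.

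Igf1r, the member with the smallest p, was compared with all genes of a mean of at least 50 by its centred log2 values over the 4 libraries. The 3 genes with the smallest root-mean-square difference were Zc3h12c (0.0117), Tapbpl (0.0124) and the predicted gene Gm42902 (0.0134). In all, 80 of 13395 genes lay within 0.05 of Igf1r, so the 3 named are not alone in their likeness over 4 libraries. For the other members that number ran from 304 (Foxo3) to 3232 (Foxo1).

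The genes around the 9 members were described from 8 lists by role, 145 distinct genes in all, of which 136 were tested. A single one passed the test, and it was lower in knockout islets, where 0.374% of all tested genes were called lower and 0.247% higher. That gene was Trib3, which encodes a pseudokinase known to bind AKT and to be induced by ER stress. Trib3 stood at 1481 and 1429 normalized counts in the controls and at 1051 and 1105 in the knockouts. The groups were well apart, and both pairs were tight. It fell by 0.43 on the log2 scale (SE 0.06, limma adjusted p 0.0366), and in the authors' deposited table its adjusted p was 0.00238. Without a filter on low values the limma call was lost (adjusted p 0.217), as it was without the mean-variance trend (0.324). It held without each library in turn (0.0475 or less). The genes of each list named for their level are the 3 of highest mean normalized count, an order that is not per length. Genes named below only for an unadjusted p under 0.05 were chosen after their values were seen.

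Among the ligands, Ins1 and Ins2 were the 2 most abundant genes of the lists, with log2 fold changes of 0.12 ± 0.16 and 0.04 ± 0.20 (SE) and limma adjusted p of 0.801 and 0.963. Both knockouts lay above both controls for Ins1, which 22.0% of all tested genes also showed, and the groups overlapped for Ins2. The SD of Ins1 was 4.13% of the mean in the controls and 2.56% in the knockouts. In the authors' deposited table its SE was 0.06 and its adjusted p 0.496. Ins1 and Ins2 are near copies, and reads can be split between them. Igf1 was close to undetected, at 13 to 19 reads per library, and Igf2 was low, at 43 to 60 reads. Igf2r, which clears IGF2, stood at 0.05 ± 0.05 (SE). Of the 11 tested ligands and binding proteins none was called by limma, with 5 higher (Ide, Igfbp5, Igfbp4, Igfbp7 and Igfals) and 0 lower at an unadjusted p under 0.05, and the median was 0.12. Igfbp1 and Igfbp2 were listed at 0 in every library, and Igfbp6 was below the filter. Igfbp7, the most abundant binding protein of the list, was 1.09-fold higher (limma adjusted p 0.262).

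Ide encodes insulin-degrading enzyme, a metalloprotease that cleaves insulin. Like Igfbp5, Cdkn1a and Pdk4 it was singled out after its values were seen. Ide measured 2499 and 2937 normalized counts in the controls and 5285 and 3865 in the knockouts. Both knockouts were above both controls, and knockout library 1 was the highest by a wide margin. The mean went from 2718 ± 310 to 4575 ± 1004 (SD, n = 2 each), a log2 fold change of 0.74 ± 0.13 (SE), the widest in the lists. Its limma adjusted p of 0.0507 missed the threshold of 0.05. edgeR on the recovered reads called Ide (adjusted p 0.0419), DESeq2 did not (0.0813), and in the authors' deposited table its adjusted p was 0.0902. Igfbp5, an IGF-binding protein, stood at 747 and 937 in the controls and at 1119 and 1294 in the knockouts (log2 fold change 0.52 ± 0.11 SE, limma adjusted p 0.0796). DESeq2 called it. The summed stellate and fibroblast markers stood at 19.1 and 15.2 TPM in the controls and at 25.4 and 20.6 TPM in the knockouts, and their part in these values was not tested.

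None of the 15 tested adaptors was called by limma, edgeR or DESeq2, with 1 lower (Cbl, a ubiquitin ligase) at an unadjusted p under 0.05, and the median was -0.04. Those of highest count were Ptpn11, Shc1 and Grb2, which link the receptors to RAS. Their log2 fold changes were -0.12 ± 0.05, -0.04 ± 0.06 and -0.04 ± 0.05 (SE). Shc3 was below the filter, as were Irs3 and Irs4. Among 20 inhibitors of receptor and PI3K signalling, Trib3 was called and 19 were not, with a median of -0.08. At an unadjusted p under 0.05 were 5 lower (Trib3, Ptpn2, Phlpp1, Pik3ip1 and Mul1) and 1 higher (Grb10). The ubiquitin ligase Nedd4 (0.04 ± 0.05) and the receptor phosphatase Ptprf (-0.08 ± 0.05) were those of highest count (SE).

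Of 12 PI3K and PDK1 genes none was called by limma, with 2 lower (Pik3r1 and Pdpk1) and 1 higher (Pik3cd) at an unadjusted p under 0.05, and the median was -0.06. Pik3r1, the main regulatory subunit of PI3K, had the smallest p. It measured 6836 and 7668 normalized counts in the controls and 5584 and 6168 in the knockouts, without overlap. The log2 fold change was -0.30 ± 0.07 (SE) with a limma adjusted p of 0.0897. DESeq2 on the recovered reads called it (adjusted p 0.0118), edgeR did not (0.0879), and in the authors' deposited table its adjusted p was 0.0106. Without control library 2 and without knockout library 2 it passed limma, at -0.39 and -0.37. Pdpk1, the kinase that phosphorylates AKT, stood at -0.13 ± 0.05 and Pik3c2a at -0.02 ± 0.06 (SE).

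In the branch from AKT to mTOR and GSK3, none of 25 genes was called by limma, edgeR or DESeq2, with 1 lower (Rheb) and 3 higher (Rps6, Eif4ebp1 and Ddit4) at an unadjusted p under 0.05, and the median was -0.03. Its genes of highest count were the mTOR inhibitor Deptor (-0.03 ± 0.05), the ribosomal protein gene Rps6 (0.16 ± 0.05) and the translation repressor Eif4ebp2 (-0.04 ± 0.05). None of 14 FOXO family genes and regulators was called by the 3 tools either, with 3 lower (Ywhag, Sirt1 and Mapk8) at an unadjusted p under 0.05 and a median of -0.04. The 14-3-3 proteins, which hold phosphorylated FOXO in the cytoplasm, held its 3 highest counts. Ywhae stood at 0.00 ± 0.05 (just below 0 with scaling to a common total), Ywhaz at -0.09 ± 0.06 and Ywhag at -0.21 ± 0.06 (SE). Per length Ywhab, named after its values were seen, stood above Ywhag (120.8 against 83.2 TPM), with a log2 fold change of 0.02 ± 0.05 (SE). Ywhaz ran from -0.17 without control library 2 to -0.01 without control library 3.

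Genes described in textbooks as FOXO targets lay on both sides of 0. Of 22 tested none was called by limma, with 4 lower (Sesn3, Ppargc1a, Pik3ip1 and Neurod1) and 5 higher (Cdkn1a, Pdk4, Txnip, Eif4ebp1 and Klf15) at an unadjusted p under 0.05, and the median was -0.06. Igfbp1 and G6pc were at 0 in every library, and Pck1 and Trim63 had at most 2 reads. Txnip, a thioredoxin inhibitor also induced by glucose, had the highest count of the list, at 55263 and 45824 normalized counts in the controls and 63299 and 56942 in the knockouts (log2 fold change 0.25 ± 0.09 SE, limma adjusted p 0.242). Without control library 2 it passed the test at 0.39 (limma adjusted p 0.0381), and without control library 3 it stood at 0.12 (0.573). Sesn3 stood at -0.12 ± 0.05 and Cited2 at -0.07 ± 0.10 (SE).

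Cdkn1a, a cell cycle inhibitor that p53 also induces, had the smallest p of the target list. It measured 4503 and 4398 in the controls and 6101 and 5328 in the knockouts, with all knockouts above all controls. Its log2 fold change was 0.36 ± 0.07 (SE) at a limma adjusted p of 0.0550. edgeR (adjusted p 0.0496) and DESeq2 (0.00112) called it, and in the authors' deposited table its adjusted p was 0.00107. Pdk4, which restrains pyruvate oxidation, stood at 1677 and 1362 in the controls and 2447 and 1874 in the knockouts (log2 fold change 0.50 ± 0.13 SE, limma adjusted p 0.116).

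None of the 19 genes of the RAS-ERK branch was called by limma, edgeR or DESeq2, with 1 lower at an unadjusted p under 0.05, and the median was -0.02. Mapk3, an ERK gene and one of the 3 of highest count in the list, stood at 0.03 ± 0.05 (SE).

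**Figure D4:**
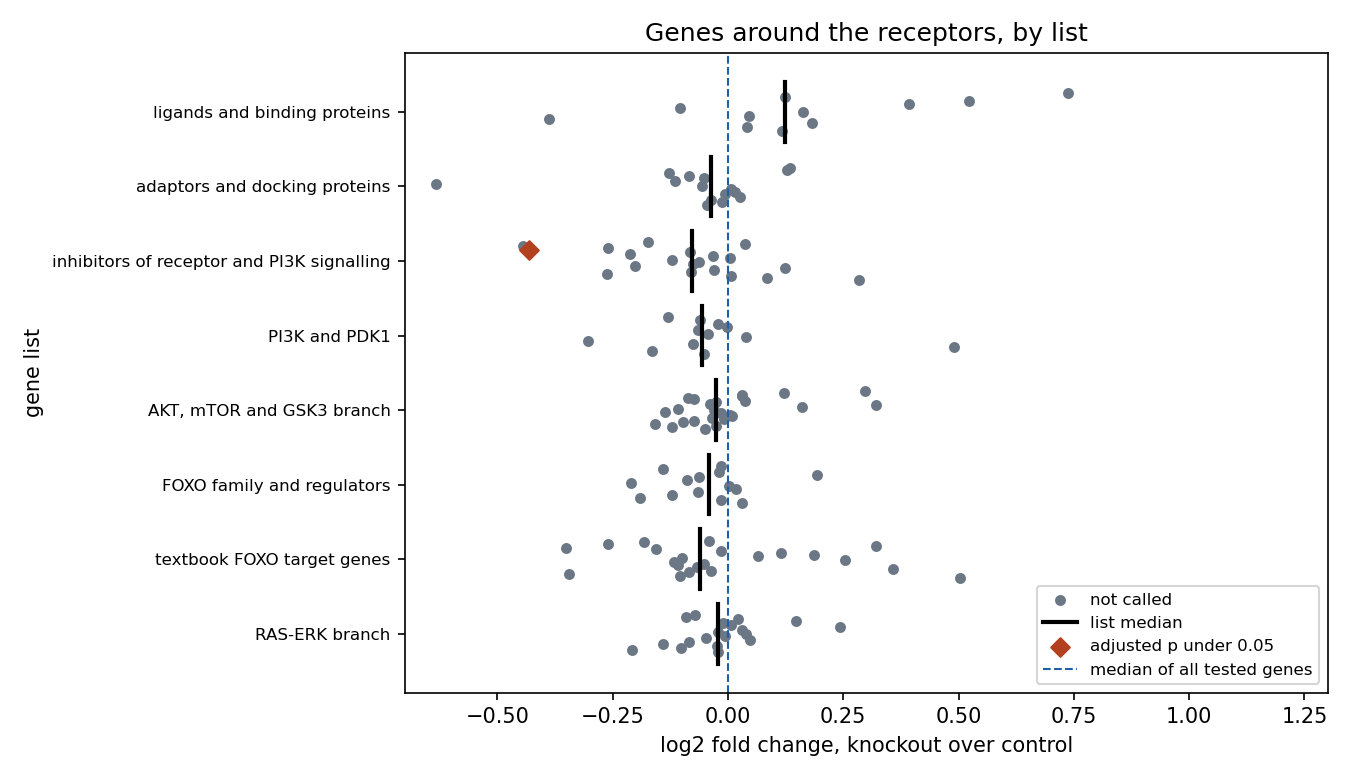
Log2 fold change of knockout over control (x axis) of every tested gene in the 8 lists, with the list median as a black bar and the median of all tested genes as a dashed line. Trib3 is the only gene marked as called, and Ide is the point furthest to the right.

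**Figure D5:**
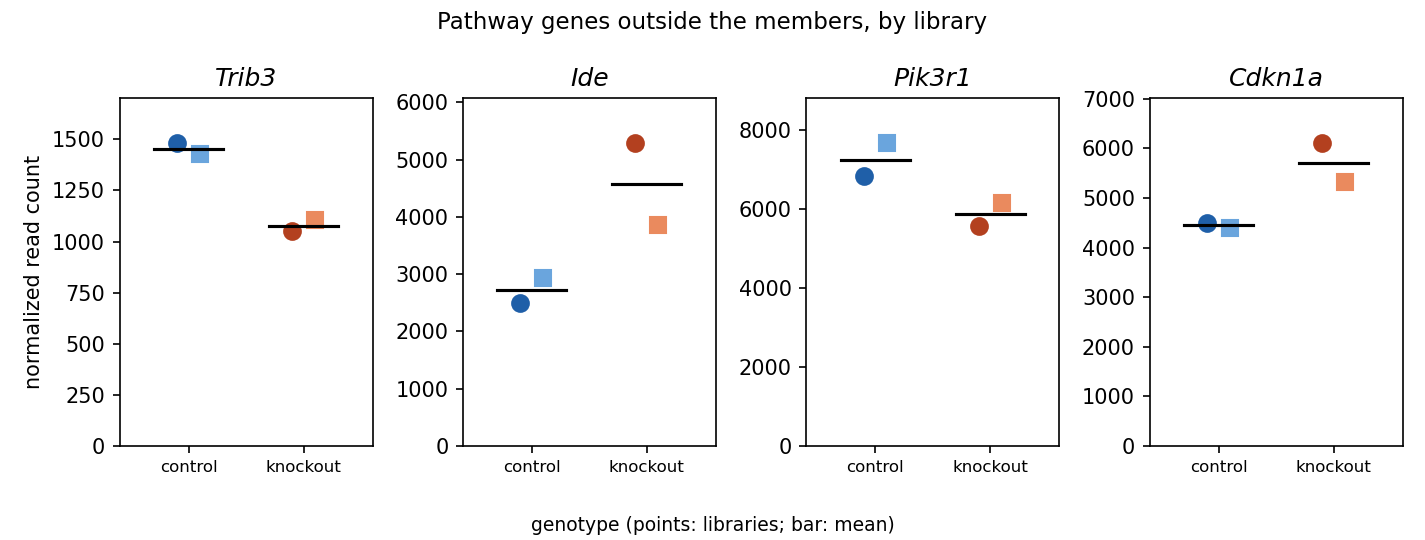
Normalized read count (y axis, from 0) of Trib3, Ide, Pik3r1 and Cdkn1a in each library, with a bar at the mean of each genotype. The groups do not overlap for any of the 4 genes, and the 2 knockout libraries are furthest apart for Ide (5285 and 3865).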

How the data were processed

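Islet poly(A) RNA was sequenced from 4 pooled libraries. The authors deposited 1 table of normalized signal per gene (read counts divided by size factors) with their own log2 fold changes, p-values and test score. The build GRCm38 and the tools STAR 2.5.1b, DESeq2 1.22.2, featureCounts 1.6.0 and CASAVA 1.4 are named per the submitters' processing notes, with no role or strand setting. The smallest value above 0 of each library was taken as 1 read. Division by it gave whole reads for 100% of values (within 0.01 read), 47624630 to 51756221 per library. Replicates differed by more than sampling noise (chi-square over degrees of freedom 10.1 and 9.85).

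Testing covered genes that reached 10 in 2 or more libraries, with limma 3.58.1 (trended empirical Bayes, R 4.3.3) on log2(value + 1), tested on simulated data, at an adjusted p of 0.05. edgeR 4.0.16 and DESeq2 1.42.0 on the recovered reads, other pseudocounts, filters, scalings and variance settings, and leaving out each library were alternatives. Levels per length used GENCODE M21 exons. Ratios were compared by exact permutation. Named were the 9 genes, Ggcx, their family and ligands, and, from each list, called genes and the 3 of highest mean normalized count, not per length. The members and lists were chosen with earlier results of these data known. Some genes that this rule would name are not reported here.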

Additional observations from a re-analysis of the deposited data

How the results depend on the processing

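No paired analysis was possible because the control columns are numbered 2 and 3 and the knockout columns 1 and 2, so that they share a single number. With 2 libraries per genotype, small differences cannot be told from spread between pools, and the cause of the changes that follow was not tested. Higher and lower calls over all genes were 1 and 1 with no filter on low values, 19 and 32 with a filter at 50, 85 and 124 with robust empirical Bayes, 0 and 0 without the mean-variance trend (1841 at an unadjusted p under 0.05), and 120 and 208 by DESeq2. Leaving out 1 library gave 58 to 207 higher and 49 to 241 lower. Of 126 comparisons of a member's fold change with an alternative, 122 kept direction and side of the threshold. The exceptions were Irs1 at -0.0015 with a common total and -0.0599 without control library 3, Irs2 at 0.0448 without control library 2, and Foxo3, called without control library 2. Over leaving out 1 library, the log2 fold change ran from -0.0599 to 0.0724 for Irs1, -0.10 to 0.0448 for Irs2 and -0.30 to -0.10 for Foxo3. For genes outside the 9 whose sign turned, it ran from -0.0417 to 0.103 for Foxo4, -0.187 to 0.156 for Foxo6, -0.107 to 0.472 for Igf1, -0.109 to 0.0193 for Shc1, -0.0819 to 0.0394 for Pik3c2a, -0.0813 to 0.0016 for Eif4ebp2, -0.0069 to 0.0132 for Ywhae, -0.206 to 0.0698 for Cited2 and -0.0113 to 0.0706 for Mapk3. Ggcx kept its log2 fold change of -3.35 and lost its call with no filter (adjusted p 0.217), without the trend (0.329) and with robust empirical Bayes (0.294). Foxo6 stood at 0.0031 with the upper quartile and Ywhae at -0.0046 with a common total. In the ligand list 1 gene was called with a pseudocount of 5, the upper quartile, edgeR and DESeq2. In the inhibitor list 0 were called with no filter and without the trend. In the PI3K list 1 was called by DESeq2, and in the FOXO target list 1 with the upper quartile, robust empirical Bayes, edgeR and DESeq2. Leaving out 1 library gave 0 to 2 calls for ligands, 1 to 2 for inhibitors, 0 to 1 for PI3K, 0 to 1 for AKT and mTOR, and 1 to 3 for FOXO targets. With the longest transcript as length, levels were 13.6 TPM for Insr, 11.5 for Igf1r, 90.6 for Insrr, 4.44 for Irs1, 189.5 for Irs2, 69.4 for Akt1, 26.5 for Akt2, 24.9 for Foxo1 and 28.0 for Foxo3. The log2 ratios were then 1.39 for Akt1 over Akt2, -0.16 for Foxo1 over Foxo3 and -2.74 for Insr over Insrr. The log2 ratio of Foxo1 over Foxo3 ran from -0.0561 to 0.0324 over leaving out 1 library.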
